A study of Homo sapiens with 26 samples.

Results

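The proteasome genes described here are the protein-coding genes on standard chromosomes whose symbols are PSMA, PSMB, PSMC, PSMD, PSME, PSMF or PSMG with digits, together with POMP and ADRM1, at a mean of 1 FPKM (sequenced fragments scaled to gene length and library size) or more over all libraries. Of 58735 genes in the deposited table, 50 had a matching name and 46 met the level rule. The study made 26 poly-A RNA libraries from 3 established human lines: CAL51, a triple negative breast cancer line, and the colorectal cancer lines HCT116 and DLD1. Tetraploid (4N) cells were made by blocking cytokinesis for 20 hr, with 75 µM blebbistatin, a myosin inhibitor, in CAL51 and HCT116, and with 1.5 µg/mL dihydrocytochalasin (DCB), an actin inhibitor, in DLD1. After washout and 48 hr of recovery single cells were grown into clones, and the labels class the 4N clones as large or small without giving the measure. CAL51 had 3 large 4N clones, 1 small 4N clone, 2 diploid (2N) clones and 1 parental library. HCT116 had 3 large 4N clones, 3 small 4N clones, 2 2N clones and 1 parental library. DLD1 had 4 large 4N clones, 3 small 4N clones, 2 2N clones and 1 parental library. The labels list no drug treatment for the 2N clones and parental cells. Each clone descends from 1 cell, and the drug differs between DLD1 and the other lines, so drug and line cannot be told apart. Every 4N clone came from drug-treated cells and no 2N clone is listed with a drug. Ploidy and drug exposure therefore cannot be told apart in any comparison of 4N with 2N clones.

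The proteasome degrades proteins that carry ubiquitin chains. Its 20S core is a barrel of alpha and beta rings, and the beta subunits encoded by PSMB5, PSMB6 and PSMB7 cut the substrate. The 19S cap binds ubiquitin, removes it and unfolds the substrate with a ring of ATPases. Interferon induces PSMB8, PSMB9 and PSMB10, which take the places of PSMB5, PSMB6 and PSMB7 in the immunoproteasome and favour peptides for presentation to T cells. In mammalian cells NRF1 (NFE2L1) raises the subunit genes together when proteasome activity falls short.

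Libraries held 23.5 to 44.5 M reads (M, 1e6) recovered from the FPKM values, with a median of 32.5 M, and 1 read in a gene of 1 kb was worth 0.0246 to 0.0400 FPKM. Mitochondrial genes took 2.42% to 10.1% of reads. All 5 epithelial markers were above 0 in every library, with CDH1 (median 0.729 FPKM) and KRT19 (median 11.3 FPKM) lowest in CAL51. Of 5 intestinal markers, CDX2 reached 0.0217 to 1.18 FPKM in CAL51, 4.28 to 8.02 FPKM in HCT116 and 38.5 to 81.8 FPKM in DLD1, and CDH17 at most 4.66, 0.0830 and 36.9 FPKM in the same lines. CDX1 and LGALS4 were under 1 FPKM in all 3 lines, and VIL1 was under 0.1 FPKM in CAL51 and HCT116 and reached 8.99 FPKM in DLD1. Of the receptors that define triple negative tumours, ESR1 and PGR were at most 0.0217 and 0.00950 FPKM in CAL51, and ERBB2 was 14.9 to 22.8 FPKM, against 10.4 to 14.7 FPKM in HCT116 and 15.7 to 19 FPKM in DLD1. CAL51 large 4N clone 1 stood apart from the other large CAL51 clones, with a summed level of the 5 epithelial markers of 3899 FPKM, against 222 and 205 FPKM in clones 2 and 3. KRT8 (1964 FPKM) and KRT18 (1853 FPKM) made up most of that sum in clone 1.

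Levels of the proteasome genes ranged widely within most roles. The structural and constitutive catalytic beta subunits were high, with means over the 26 libraries of 47.4 to 134 FPKM for PSMB1, PSMB2, PSMB3 and PSMB4, and of 83.4 to 102 FPKM for PSMB5, PSMB6 and PSMB7. The 5 alpha ring subunits spanned 7.48 FPKM for PSMA1 to 196 FPKM for PSMA7, the highest member, with a median of 26.6 FPKM. The 6 ATPases, PSMC1 to PSMC6, spanned 12.4 to 79.5 FPKM, and the base subunits PSMD1, PSMD2 and PSMD4 with ADRM1, which hold the docking sites for ubiquitin, spanned 42.6 to 76.4 FPKM. The 8 lid subunits, among them the deubiquitinase PSMD14, spanned 12.03 to 60.1 FPKM. The 20S assembly chaperones spanned 1.46 FPKM for PSMG4 to 83.0 FPKM for POMP, the factor that matures the catalytic sites. The 3 immunoproteasome catalytic genes were among the 5 lowest members, with 5.46 FPKM for PSMB8, 2.17 FPKM for PSMB10 and 1.23 FPKM for PSMB9.

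The level rule removed 4 names. PSMA8, an alpha subunit of germ cells, and PSMB11, the catalytic subunit of the thymus, were near 0. PSMA2 and PSMA6, which encode alpha ring subunits that every 20S core contains, averaged 0.694 and 0.554 FPKM, just outside the rule, while PSMB9 at 1.23, PSMG4 at 1.46 and PSMD9 at 1.47 FPKM were just inside it. In GENCODE release 29, 97.1% of the coding bases of PSMA2 and 70.4% of those of PSMA6 also lie in exons of another gene on the same strand. The same share was 88.6% for PSMA1, 58.7% for PSMD9, 58.3% for PSMB10 and 14.2% for PSMF1, and 0 for 41 of the 46 members. How reads in shared exons were assigned is not given in the sources used here, so the levels of these genes are uncertain, and the part that sharing has in their low levels was not tested. Levels per length also depend on the annotated exon length of each gene.

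The 3 immunoproteasome catalytic genes had the 3 largest folds between line means of all members, 121-fold for PSMB8, 7.45-fold for PSMB9 and 3.38-fold for PSMB10. The folds of PSMB8 and PSMB9 divide by means near the floor, 0.108 FPKM in HCT116 and 0.219 FPKM in CAL51. Both genes met the level rule only through the lines where they were higher, so their rank by fold partly follows from that rule. PSMB8 (chromosome 6) was 2.32, 1.43 and 1.84 FPKM in the CAL51 large 4N clones, 0.440 FPKM in the small clone, 0.276 and 1.81 FPKM in the 2N clones and 2.17 FPKM in the parental cells. In HCT116 it was 0.0466, 0.0884 and 0.0502 FPKM in large clones, 0.0933, 0.303 and 0.0884 FPKM in small clones, 0.123 and 0.0682 FPKM in 2N clones and 0.115 FPKM in the parental cells, from 5 to 32 reads. In DLD1 it was 16.8, 12.8, 7.62 and 13.4 FPKM in large clones, 14.8, 18.3 and 17.0 FPKM in small clones, 11.98 and 8.76 FPKM in 2N clones and 9.34 FPKM in the parental cells. Every DLD1 library was above every library of both other lines, and CAL51 and HCT116 overlapped only at the lowest CAL51 clone. On log2(FPKM + 1), PSMB8 differed by -2.53 ± 0.17 between CAL51 and DLD1 (SE, limma, adjusted p = 3.61e-10), by -3.54 ± 0.16 between HCT116 and DLD1 (adjusted p = 1.29e-12) and by 1.01 ± 0.17 between CAL51 and HCT116 (adjusted p = 5.05e-05). These tests weigh 7 CAL51, 9 HCT116 and 10 DLD1 libraries, and each line is a single line.

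The line means of PSMB10 stood in the order of PSMB8, and those of PSMB9 in another. PSMB9 (chromosome 6) was 0.658, 0.0238 and 0.0679 FPKM in CAL51 large clones, 0.0113 FPKM in the small clone, 0.0735 and 0.251 FPKM in 2N clones and 0.450 FPKM in the parental cells, with 1 to 82 reads a library. It was 1.24, 1.56 and 0.843 FPKM in HCT116 large clones, 3.01, 0.793 and 1.05 FPKM in small clones, 2.20 and 1.997 FPKM in 2N clones and 2.00 FPKM in the parental cells. In DLD1 it was 3.25, 0.534, 0.624 and 2.62 FPKM in large clones, 1.75, 1.35 and 1.68 FPKM in small clones, 1.62 and 0.878 FPKM in 2N clones and 1.35 FPKM in the parental cells. PSMB9 was thus lower in CAL51 than in HCT116 (log2 difference -1.15 ± 0.24, limma adjusted p = 0.000387) and than in DLD1 (-1.01 ± 0.24, adjusted p = 0.00129). PSMB8 was also lower in CAL51 than in DLD1, but it was higher in CAL51 than in HCT116. PSMB10 (chromosome 16) was 2.79, 1.80 and 1.99 FPKM in CAL51 large clones, 1.74 FPKM in the small clone, 1.18 and 1.59 FPKM in 2N clones and 1.98 FPKM in the parental cells. In HCT116 it was 0.783, 0.683 and 3.10 FPKM in large clones, 0.795, 0.933 and 0.747 FPKM in small clones, 0.661 and 0.725 FPKM in 2N clones and 0.701 FPKM in the parental cells, so large clone 3 alone was above 1 FPKM, with 191 reads against 40 to 61 in the others. In DLD1 it was 3.44, 3.65, 2.98 and 3.32 FPKM in large clones, 2.34, 3.99 and 5.22 FPKM in small clones, 2.92 and 3.22 FPKM in 2N clones and 3.17 FPKM in the parental cells. PSMB10 was lower in HCT116 than in DLD1 by a log2 difference of -1.21 ± 0.16 (limma, adjusted p = 4.29e-06).

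The constitutive partners were close between lines. PSMB5, the chymotrypsin-like subunit, averaged 127 FPKM over the CAL51 libraries, 87.96 FPKM over HCT116 and 88.96 FPKM over DLD1. PSMB6, the caspase-like subunit, averaged 78.2 FPKM in CAL51, 76.4 FPKM in HCT116 and 93.4 FPKM in DLD1, and PSMB7, the trypsin-like subunit, averaged 100.1 FPKM, 89.4 FPKM and 113.6 FPKM in the same lines. PSMB8 made up a median of 1.28% of the summed FPKM of PSMB8 and PSMB5 in CAL51, 0.109% in HCT116 and 12.7% in DLD1. PSMB9 made up a median of 0.101% of PSMB9 and PSMB6 in CAL51, 2.05% in HCT116 and 1.47% in DLD1, and PSMB10 made up 1.83%, 0.986% and 2.82% of PSMB10 and PSMB7 in those lines. In no library did an immunoproteasome gene exceed 18.6% of its pair.

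**Figure D1:**
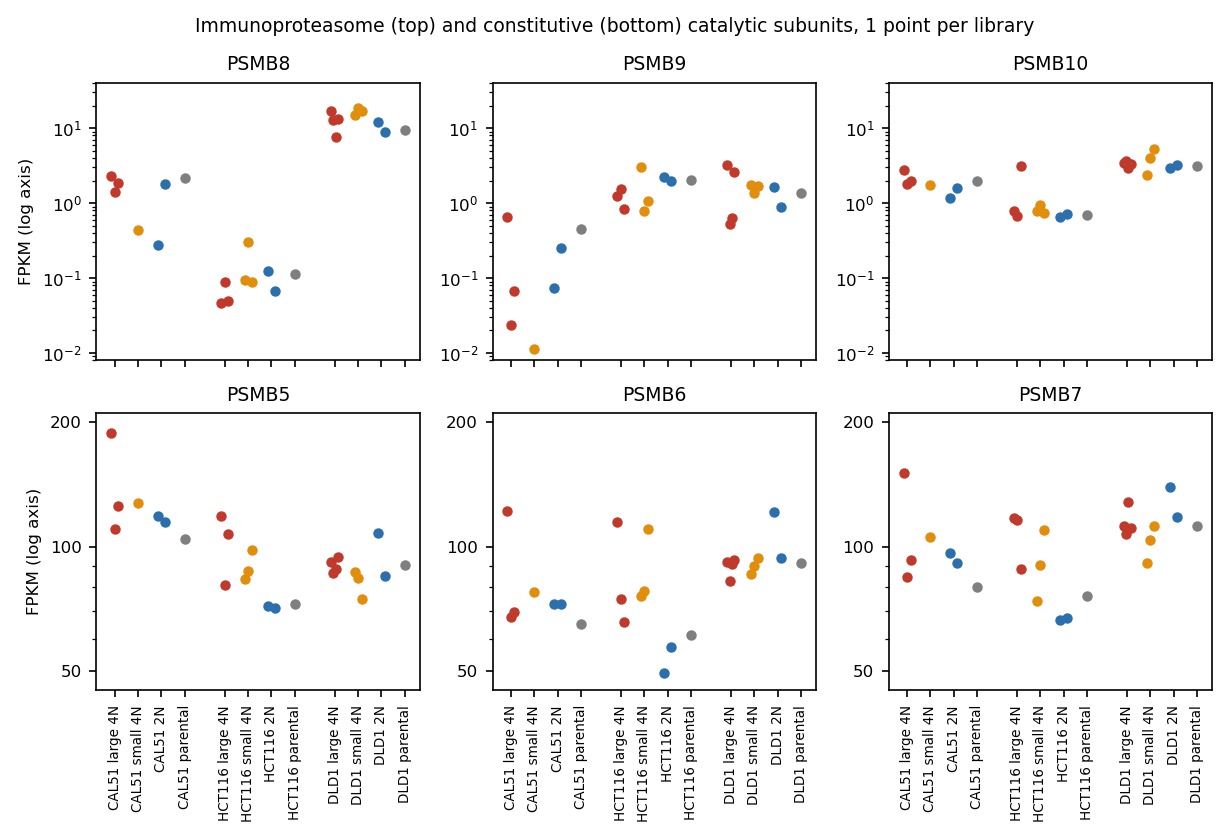
FPKM (log axis) of the immunoproteasome catalytic subunits PSMB8, PSMB9 and PSMB10 (top) and of PSMB5, PSMB6 and PSMB7 (bottom), 1 point per library, by cell line and clone class. PSMB8 lies at 7.62 to 18.3 FPKM in DLD1 and at 0.0466 to 0.303 FPKM in HCT116, while PSMB9 is lowest in CAL51.

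Between lines the proteasome genes as a family were lowest in HCT116 and highest in DLD1. Over all classes, 39 of the 46 differed between HCT116 and DLD1, with 37 lower and 2 higher in HCT116, where 63.6% of all 14835 tested genes passed (30.6% lower and 33.0% higher). Between CAL51 and DLD1, 34 differed, with 29 lower and 5 higher in CAL51 (62.0% of all genes passed, 29.7% lower and 32.2% higher). Between CAL51 and HCT116, 24 differed, with 20 higher and 4 lower in CAL51, beside 64.6% of all genes (32.8% higher and 31.8% lower). The median log2 difference of the family was -0.51 between HCT116 and DLD1, -0.32 between CAL51 and DLD1 and 0.20 between CAL51 and HCT116, against medians of 0.00, 0.02 and 0.01 for all genes. DLD1 had the highest mean of the 3 lines for 35 members, CAL51 for 7 and HCT116 for 4. With every library scaled to the same sum (TPM), the median of all genes itself shifted by -0.19 between HCT116 and DLD1 and by 0.24 between CAL51 and HCT116, where 40 and 38 members passed.

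Outside the immunoproteasome genes, the larger line differences included those of 19S subunits and of core assembly chaperones. PSMC6, an ATPase of the 19S base, was lower in HCT116 than in DLD1 by -1.10 ± 0.07 and higher in CAL51 than in HCT116 by 0.87 ± 0.08 on the log2 scale (limma, adjusted p = 1.74e-10 and 1.22e-08); its FPKM averaged 13.8 in CAL51, 7.23 in HCT116 and 16.1 in DLD1. PSMD13, a lid subunit, averaged 26.6 FPKM in CAL51, 25.7 FPKM in HCT116 and 54.8 FPKM in DLD1, a log2 difference of -1.09 ± 0.13 between CAL51 and DLD1 and of -1.15 ± 0.12 between HCT116 and DLD1. PSMD12, a lid subunit that also bridges to the base, was lowest in CAL51, at 14.7 FPKM against 30.9 FPKM in HCT116 and 27.0 FPKM in DLD1, and every CAL51 library was below every library of both other lines. PSMC4, another ATPase, averaged 113.6 FPKM in CAL51 and 55.7 FPKM in HCT116, a log2 difference of 0.9955 ± 0.20. PSMG1, which pairs with PSMG2 to start the alpha ring, was lower in HCT116 than in DLD1 by -0.92 ± 0.09, and PSMG3, which pairs with PSMG4, was lower in CAL51 than in DLD1 by -0.88 ± 0.12. Against this, PSMD2, a scaffold of the base, and PSMD10, a base chaperone, were higher in HCT116 than in DLD1, where neither passed after TPM scaling. Every HCT116 library was below every DLD1 library for 10 members (12.6% of all genes) and above for 0 (17.3% of all genes).

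In HCT116 the proteasome genes lay higher in the 4N clones than in the 2N clones, and most of all in the large ones, while single genes hardly passed the test. The 4N clones alone came from blebbistatin-treated cells, so ploidy and drug exposure cannot be told apart here. The difference between large 4N and 2N clones was above 0 for 41 of 46 genes, with a median log2 of 0.47 (range -0.50 to 0.66), where 49.2% of all genes were above 0. By limma 1 member passed an adjusted p of 0.05, PSMD12, beside 0.917% of all genes; 29 were higher at an unadjusted p under 0.05, beside 7.94% of all genes. All 3 large clones were above both 2N clones and the parental library for 31 of the 46 genes, beside 13.1% of all genes, and below them for PSMB9, PSME1 and PSME2, beside 14.9%. Fewer cells of a kind and less RNA per cell cannot be told apart in such bulk libraries, and FPKM gives a share of the library's RNA, not an amount per cell, so a rise in RNA per cell common to all genes would not show.

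Most subunit groups had medians of 0.38 to 0.62, and 3 groups lay nearer 0. In large against 2N HCT116 clones, differences were above 0 for 5 of 5 alpha subunits (median 0.50), 4 of 4 structural beta subunits (0.38), 3 of 3 constitutive catalytic subunits (0.62), 6 of 6 ATPases (0.53), 4 of 4 other base subunits (0.44), 8 of 8 lid subunits (0.51) and 5 of 5 core assembly chaperones (0.44). Medians lay nearer 0 for the 19S assembly chaperones PSMD5, PSMD9 and PSMD10 (2 of 3 above 0, median 0.12), the immunoproteasome subunits (1 of 3, median -0.04) and the activators (2 of 4, median 0.04), and the core inhibitor PSMF1 was at 0.40. The log2(FPKM + 1) scale draws differences of low genes towards 0. PSMB8, which sets the immunoproteasome median, averaged 0.108 FPKM over the HCT116 libraries, and PSMD9 averaged 0.964 FPKM. PSMB10, the immunoproteasome gene above 0, was raised mainly by large clone 3. Within the activators, PSME3, the nuclear PA28 gamma, was at 0.54 ± 0.22 and PSME4, which encodes PA200, at 0.30 ± 0.13, whereas PSME1 and PSME2, which form the interferon-induced PA28 ring, were at -0.40 ± 0.22 and -0.23 ± 0.17; of these 4, 0 passed (limma adjusted p between 0.228 and 0.533).

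**Figure D2:**
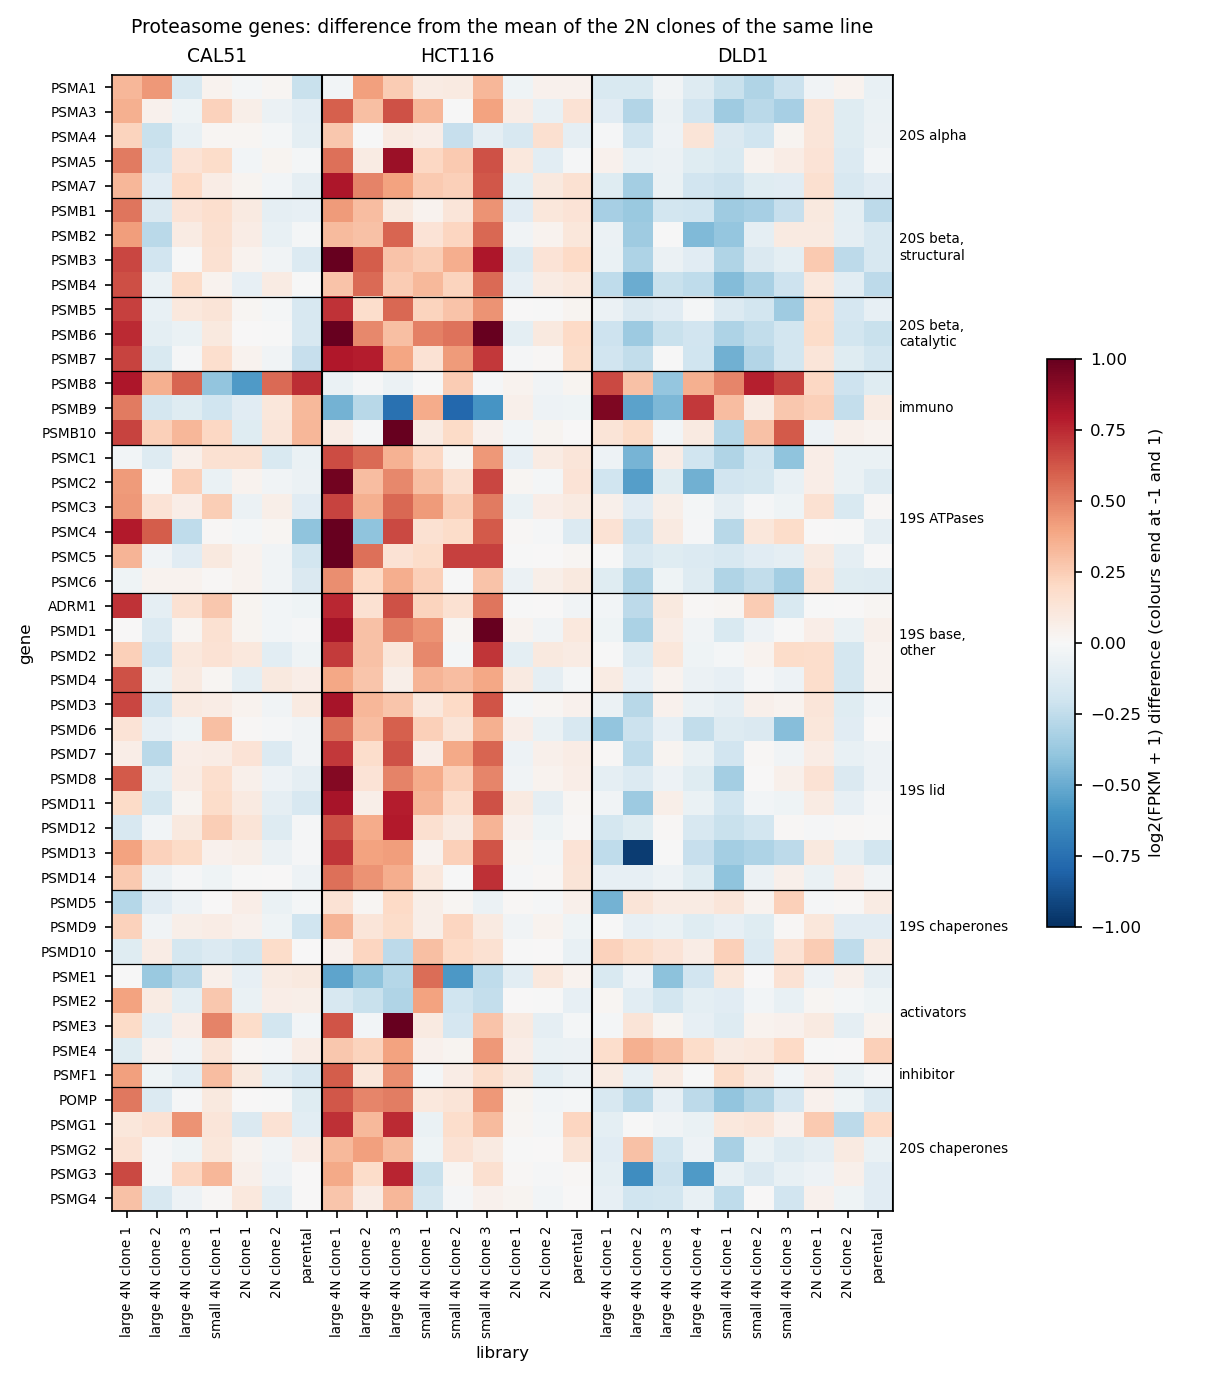
Log2(FPKM + 1) of each of the 46 proteasome genes in each library, minus the mean of the 2N clones of the same line; rows are genes in blocks by role, columns are libraries. Differences from 2N clones in HCT116 are above 0 for 41 of 46 genes in large and 40 of 46 in small 4N clones, large 4N clone 1 stands apart in CAL51, and the DLD1 4N clones lie slightly below 0.

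The catalytic subunits show the size of the difference in HCT116. PSMB7 was 117, 116 and 88.2 FPKM in large clones, 73.96, 90.2 and 109.7 FPKM in small clones, 66.4 and 67.2 FPKM in 2N clones and 75.8 FPKM in the parental cells. PSMB6 was 114.5, 74.7 and 65.9 FPKM in large clones, 75.9, 78.3 and 110.3 FPKM in small clones, 49.7 and 57.2 FPKM in 2N clones and 61.2 FPKM in the parental cells. PSMB5 was 119, 80.9 and 107 FPKM in large clones, 83.4, 87.2 and 98.0 FPKM in small clones, 71.8 and 71.3 FPKM in 2N clones and 72.9 FPKM in the parental cells. For each of the 3, every large clone was above every 2N and parental library, and large and small clones overlapped. Their log2 differences between large and 2N clones were 0.66 ± 0.21 for PSMB7, 0.62 ± 0.24 for PSMB6 and 0.49 ± 0.19 for PSMB5 (limma, adjusted p = 0.132, 0.212 and 0.211).

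In the other lines no such order held for the large clones. In CAL51, PSMB5 was 188, 110.6 and 125 FPKM in large clones, 127 FPKM in the small clone, 118 and 115 FPKM in 2N clones and 104 FPKM in the parental cells. PSMB6 was 122, 67.7 and 69.4 FPKM in CAL51 large clones, 77.9 FPKM in the small clone, 72.6 and 72.6 FPKM in 2N clones and 65.0 FPKM in the parental cells. PSMB7 was 150.2, 84.3 and 92.9 FPKM in CAL51 large clones, 105 FPKM in the small clone, 96.4 and 91.5 FPKM in 2N clones and 79.9 FPKM in the parental cells. Large clone 1 was the highest CAL51 library for all 3, the other large clones overlapped the 2N and parental libraries, and the small clone was above them. In DLD1, PSMB5 was 91.6, 86.5, 88.5 and 94.3 FPKM in large clones, 86.9, 84.0 and 74.6 FPKM in small clones, 108 and 84.9 FPKM in 2N clones and 90.5 FPKM in the parental cells. PSMB6 was 92.0, 82.7, 91.0 and 93.1 FPKM in DLD1 large clones, 85.7, 89.7 and 93.7 FPKM in small clones, 121 and 93.7 FPKM in 2N clones and 91.2 FPKM in the parental cells. PSMB7 was 112, 107.5, 128 and 111 FPKM in DLD1 large clones, 91.4, 104 and 112 FPKM in small clones, 139 and 118 FPKM in 2N clones and 112 FPKM in the parental cells. DLD1 2N clone 1 was the highest DLD1 library for each of them, and for PSMB7 every small clone was below every 2N and parental library.

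The PA28 pair lay lower in large than in 2N clones of HCT116, and neither gene passed. PSME1 was 45.03, 49.1 and 53.5 FPKM in large clones, 96.8, 43.4 and 54.5 FPKM in small clones, 60.5 and 70.5 FPKM in 2N clones and 67.1 FPKM in the parental cells. PSME2 was 19.2, 18.4 and 17.3 FPKM in large clones, 28.9, 18.7 and 18.3 FPKM in small clones, 21.7 and 21.6 FPKM in 2N clones and 20.4 FPKM in the parental cells. All large clones were below the 2N and parental libraries for both, which held for 3 of the 46 members and for 14.9% of all genes. The small clones spread widely. Small clone 1 was above every other HCT116 library for both and also for PSMB9, and small clone 2 was the lowest for PSME1.

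PSMD12 (ENSG00000197170, chromosome 17, 67337916 to 67366627, GRCh38) was 39.6, 32.5 and 43.9 FPKM in large HCT116 clones, 28.1, 26.6 and 31.8 FPKM in small clones, 25.7 and 24.2 FPKM in 2N clones and 25.1 FPKM in the parental cells. The large clones were above all other HCT116 libraries, and the small clones were above the 2N clones and the parental cells. Large clones averaged 38.7 ± 5.75 FPKM (SD, n = 3) and 2N clones 24.97 ± 1.07 FPKM (SD, n = 2), a log2 difference of 0.60 ± 0.14 (limma, adjusted p = 0.0461). In DLD1 it was 25.3, 26.3, 28.9 and 25.5 FPKM in large clones, 24.4, 25.1 and 28.9 FPKM in small clones, 28.3 and 28.9 FPKM in 2N clones and 28.6 FPKM in the parental cells, and in CAL51 12.8, 14.1 and 15.4 FPKM in large clones, 17.2 FPKM in the small clone, 15.8 and 13.1 FPKM in 2N clones and 14.2 FPKM in the parental cells. The classes overlapped in DLD1, and in CAL51 the small clone was highest. The median of the genes on chromosome 17 differed in HCT116 by 0.07 between large and 2N clones, so PSMD12 lay 0.54 above it. The call was lost in 19 of 32 alternatives, with adjusted p between 0.00505 and 0.305 and a log2 difference between 0.51 and 0.72. PSMC3, an ATPase (0.54 ± 0.14, adjusted p = 0.0740), and PSMG1 (0.60 ± 0.17, adjusted p = 0.0953) came next and did not pass.

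How many members passed rested on single libraries. With HCT116 large 4N clone 2 left out, 13 members passed, beside 7.97% of all genes, and with CAL51 large 4N clone 1 left out of the shared estimate of spread, 4 passed, beside 1.62% of all genes. The family median in each HCT116 library, relative to the 2N mean, was 0.60, 0.28 and 0.40 in large clones, 0.18, 0.15 and 0.43 in small clones and 0.04 in the parental cells, so small clone 3 lay within the range of the large clones. The members lie on 18 chromosomes, and 41 of 46 were above the median of their own chromosome, by a median of 0.43. Summed levels of the 5 epithelial markers were 1605 to 2491 FPKM in large clones, 1159 to 1571 FPKM in small clones, 1030 to 1074 FPKM in 2N clones and 1052 FPKM in the parental cells, and 5 of 5 had a difference above 0 between large and 2N clones, with 0 past the threshold. Their part in the result was not tested. The share of mitochondrial reads was 7.35% to 9.36% in large clones, 8.003% to 9.31% in small clones and 8.77% to 10.1% in 2N clones.

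**Figure D3:**
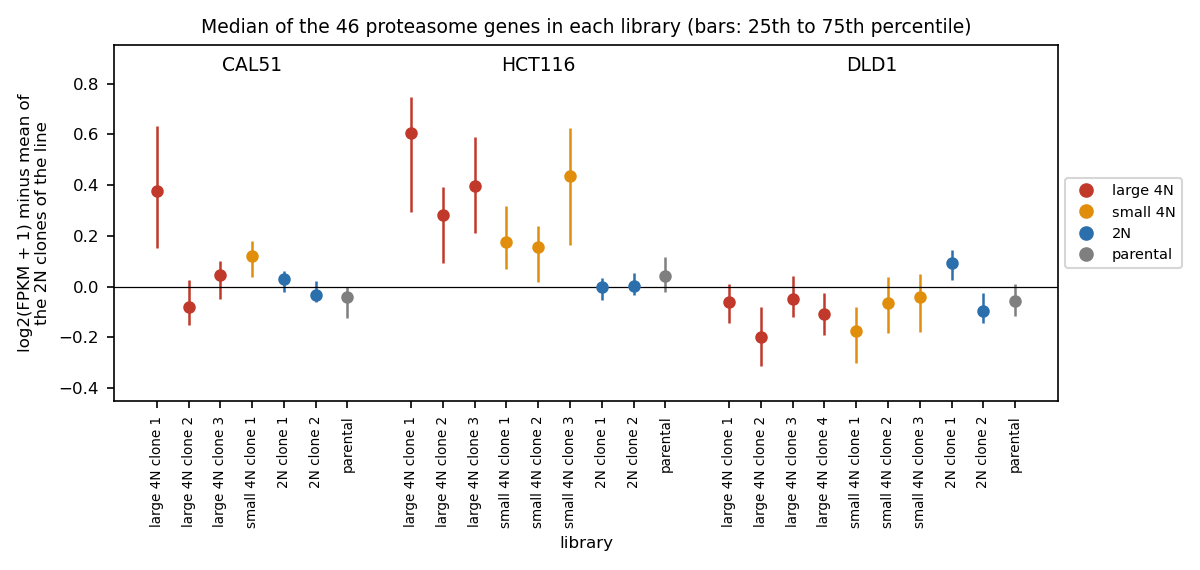
Median over the 46 proteasome genes of log2(FPKM + 1) minus the mean of the 2N clones of the line, in each library; bars run from the 25th to the 75th percentile of the genes. HCT116 4N clones lie at 0.15 to 0.60, DLD1 4N clones at -0.20 to -0.04, and CAL51 large 4N clone 1 at 0.38.

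Small 4N HCT116 clones differed from 2N clones in the same direction by less. Differences were above 0 for 40 of 46 genes with a median of 0.24, and 0 passed by limma (0.0270% of all genes), with 5 higher at an unadjusted p under 0.05 (1.68% of all genes) and 0 passing by voom on recovered reads. All small clones were above every 2N library for 23 genes, beside 9.05% of all genes. The largest statistics were those of PSMB6 (0.69 ± 0.24, limma adjusted p = 0.772), PSMC3 (0.40 ± 0.14, 0.792) and PSMC5, an ATPase (0.52 ± 0.20, 0.914). PSMC3 was 82.7, 66.1 and 76.9 FPKM in large clones, 69.2, 61.2 and 74.0 FPKM in small clones, 48.9 and 53.9 FPKM in 2N clones and 54.8 FPKM in the parental cells. All 4N clones were thus above the 2N and parental libraries for PSMC3.

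Between large and small HCT116 clones, which share the 4N label, the core assembly factors stood out in their values. The median of the family was 0.17 and 37 of 46 genes were above 0; 0 passed by limma (0.445% of all genes) or by voom, and 8 were higher at an unadjusted p under 0.05 (8.07% of all genes). Large clones were above every small clone for 6 genes, beside 6.85% of all genes. These were PSMD12 and all 5 chaperones of the 20S core, POMP, PSMG1, PSMG2, PSMG3 and PSMG4. The chaperones were not set apart by size of difference. PSME3 had the largest log2 difference (0.47), with overlapping clones, and PSMB10 (0.34) was above PSMG2 (0.285) and PSMG4 (0.276). Among the largest statistics were PSMD12 (0.40 ± 0.12, limma adjusted p = 0.138), PSMG1 (0.46 ± 0.15, 0.159) and PSMG3 (0.46 ± 0.18, 0.232).

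The chaperones that build the core gave the following values. PSMG1 was 22.6, 16.9 and 22.9 FPKM in large clones, 12.6, 15.1 and 16.7 FPKM in small clones, 13.4 and 13.1 FPKM in 2N clones and 15.5 FPKM in the parental cells. POMP was 88.7, 81.2 and 82.5 FPKM in large clones, 62.0, 63.1 and 77.9 FPKM in small clones, 58.7 and 56.2 FPKM in 2N clones and 56.7 FPKM in the parental cells. PSMG3 was 32.6, 28.3 and 42.9 FPKM in large clones, 21.1, 25.2 and 27.9 FPKM in small clones, 25.1 and 24.6 FPKM in 2N clones and 25.1 FPKM in the parental cells. For PSMG3 the small clones spanned the 2N values, whereas the large ones were above them. When HCT116 large 4N clone 2 was left out, 3 members passed between large and small clones, PSMD12, PSME3 and PSMG1, beside 6.98% of all genes.

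**Figure D4:**
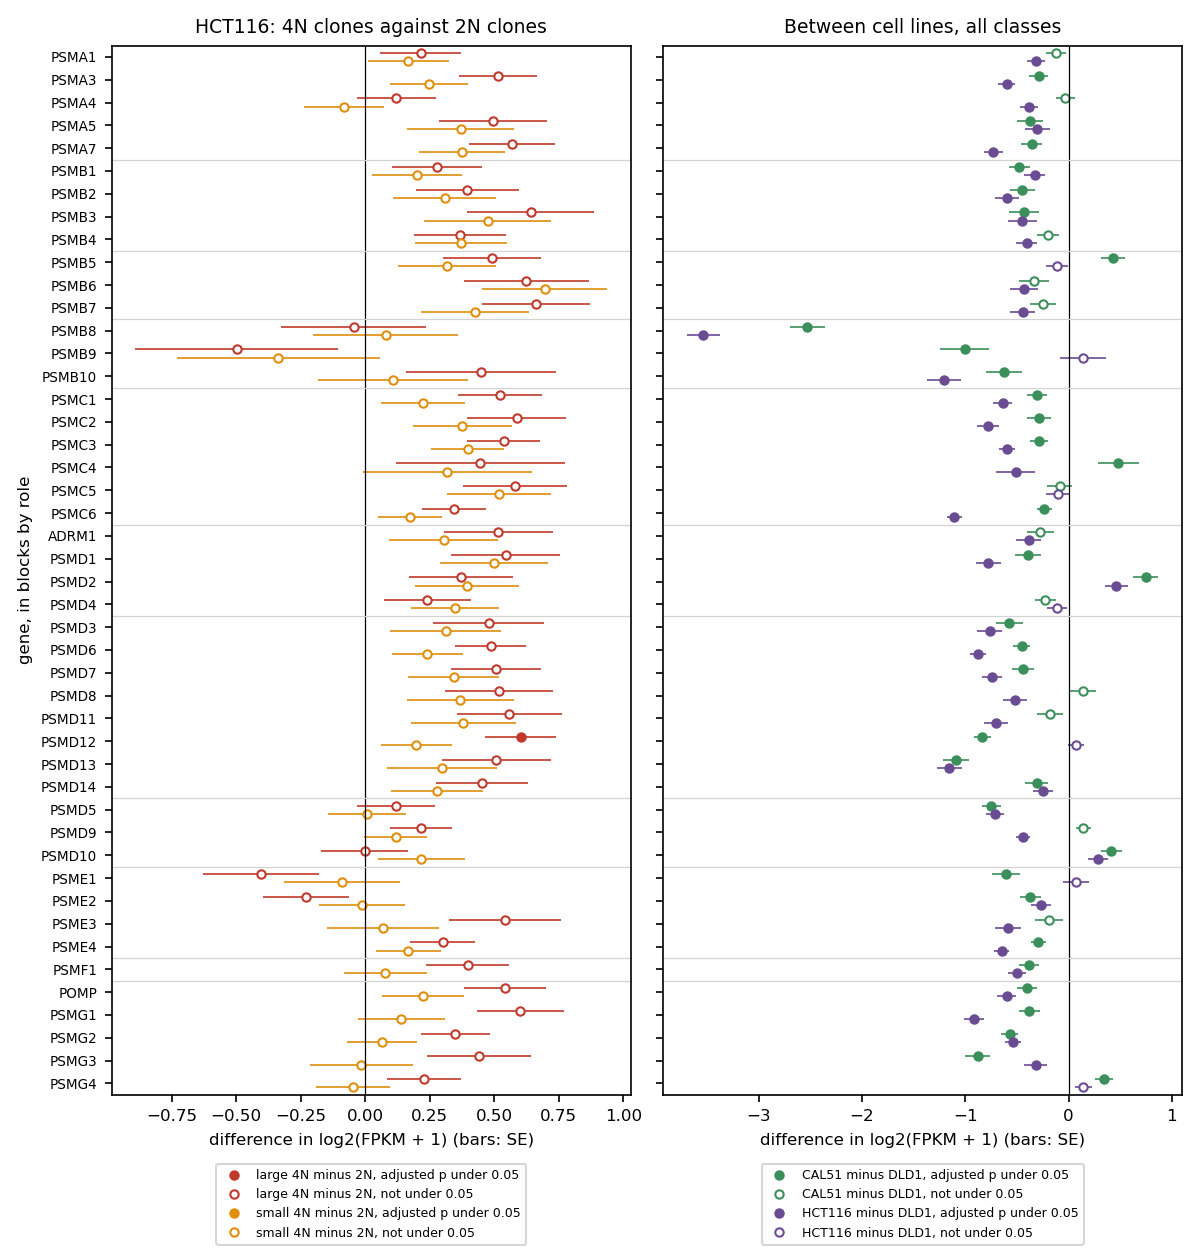
Differences in log2(FPKM + 1) with their SE for each proteasome gene, in blocks by role: large 4N and small 4N against 2N clones in HCT116 (left), and CAL51 and HCT116 against DLD1 (right); filled points have an adjusted p under 0.05. On the left PSMD12 alone is filled, and most points lie between 0.1 and 0.66; on the right 37 of the filled HCT116 points lie below 0.

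In DLD1 the family lay slightly below its 2N clones in both 4N classes. The median difference was -0.09 in large clones (38 of 46 below 0) and -0.10 in small clones (34 below 0), where 44.9% and 45.99% of all genes were above 0. The medians turned to 0.06 and 0.02 when libraries were scaled to TPM. That scaling multiplies all genes of a library by the same factor, so other genes moved with the family. By limma 0 members passed in either (0 genes and 0.337% of all genes), with 1 and 3 at an unadjusted p under 0.05, beside 2.99% and 7.24% of all genes, and 0 passed by voom. The 2N clones differed from each other, with family medians of 0.09 and -0.09 around their mean, and the lower of these lay within the 4N range of -0.20 to -0.04. Small clones were below all 2N libraries for 9 genes (8.24% of all genes), among them PSMC6 (-0.29 ± 0.12, limma adjusted p = 0.578) and PSMA3, an alpha subunit (-0.32 ± 0.15, 0.685). PSMB8 was the single gene in which every small clone was above every 2N library, beside 7.81% of all genes, at 0.65 ± 0.28 (adjusted p = 0.602). Large against 2N clones, the largest statistics were those of PSME4 (0.25 ± 0.12), PSMG3 (-0.37 ± 0.19) and PSMC2, an ATPase (-0.34 ± 0.18), each with an adjusted p of 1.00. PSMG3 and PSMC2 lie on chromosome 7, whose genes had a median of -0.20 in this comparison and -0.17 in large against small clones. Relative to the first of these medians, PSMG3 was at -0.18 and PSMC2 at -0.14. Large and small DLD1 clones differed by a family median of 0.00, with 0 members past the threshold (0.472% of all genes) and 0 at an unadjusted p under 0.05; PSMB8 (-0.42 ± 0.24, adjusted p = 0.920), PSMG3 (-0.27 ± 0.17) and PSME1 (-0.29 ± 0.19) had the largest statistics.

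In CAL51 the difference between large 4N and 2N clones rested on 1 clone. Large clone 1 had a family median of 0.38, clones 2 and 3 had -0.08 and 0.04, and the small clone had 0.12. The fitted median for large against 2N clones was 0.12 with all clones and -0.02 without clone 1, and it was -0.01 after TPM scaling, where all genes shifted by -0.10. By limma 0 members passed, beside 0.465% of all genes, and 0 at an unadjusted p under 0.05 or by voom. PSMB8 (0.58 ± 0.28), PSMC3 (0.21 ± 0.14) and PSMB10 (0.42 ± 0.29) had the largest statistics, with adjusted p of 0.628, 0.800 and 0.817. In large clone 1 PSMB5 was 188 FPKM, against 110.6 and 125 FPKM in the other large clones, 127 FPKM in the small clone and 118 and 115 FPKM in 2N clones. Large clone 1 also had the highest summed level of the 5 epithelial markers and of the 4 mesenchymal markers. The mesenchymal list was at 195 FPKM, against 40.4 to 105 FPKM in the other CAL51 libraries. KRT8 (1964 FPKM) and KRT18 (1853 FPKM) made up most of the epithelial sum, and FN1 (169 FPKM) most of the mesenchymal sum. EPCAM, KRT19, VIM and CDH2 were highest in other CAL51 libraries. The part of these markers in the result was not tested. The single small clone was above all 2N libraries for 29 genes, beside 30.1% of all genes, and 0 passed against 2N clones (0.148% of all genes, 0.0472% higher). Between large and small clones 0 passed as well (1.52% of all genes, 0.735% higher and 0.789% lower), with 1 member at an unadjusted p under 0.05 here, 0 against 2N clones, and 0 by voom in both. Those comparisons rest on 1 small clone, taken to vary like the other groups. PSME3 (0.49 ± 0.29), PSMD6 (0.30 ± 0.18) and PSMF1, a core inhibitor (0.31 ± 0.21), led against 2N clones, and PSMB8 (0.98 ± 0.36, adjusted p = 0.227), PSMD6 (-0.29 ± 0.17) and PSME3 (-0.44 ± 0.28) led between large and small clones.

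Averaged over the lines with equal weight, 0 members passed. Large against small 4N clones had a family median of 0.05 (0.398% of all genes passed), with PSME1 at -0.29 ± 0.13 (limma adjusted p = 0.505), POMP at 0.15 ± 0.09 and PSMG2 at 0.12 ± 0.08. Large clones against 2N clones had a median of 0.15 with 42 of 46 above 0 (0.0337% of all genes passed), a median that was -0.0036 without HCT116, led by PSMC3 at 0.25 ± 0.08 (adjusted p = 0.489), PSMG1 at 0.26 ± 0.10 and PSME4 at 0.17 ± 0.07. Small clones against 2N clones had a median of 0.10 with 41 above 0 (0.0202% of all genes passed, 0.00674% higher), led by PSMC3 at 0.20 ± 0.09, PSME4 at 0.14 ± 0.08 and PSMD2 at 0.20 ± 0.13. At an unadjusted p under 0.05 there were 1, 4 and 1 members in these comparisons, beside 9.54%, 7.77% and 5.02% of all genes, and 0 passed by voom.

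Whether HCT116 and the other lines differed in their response was tested in the same fit. The difference between HCT116 and DLD1 in large 4N minus 2N clones had a median of 0.56 over the family; 0 members passed (0.0135% of all genes, 0.00674% higher and 0.00674% lower), and 25 were higher in HCT116 at an unadjusted p under 0.05, beside 5.87% of all genes. After TPM scaling this median was 0.39, where all genes shifted by -0.13. PSMD6, a lid subunit (0.72 ± 0.19, limma adjusted p = 0.228), PSMD12 (0.71 ± 0.19, 0.238) and PSMC2 (0.92 ± 0.26, 0.265) led. The genes of chromosome 7, where PSMC2 lies, had a median of -0.20 in large against 2N clones of DLD1 and 0.05 in HCT116. PSMD6 was 11.3, 9.32 and 11.6 FPKM in large and 7.72 and 6.98 FPKM in 2N HCT116 clones, while in DLD1 it was 12.95, 14.8, 16.3 and 14.5 FPKM in large and 18.8 and 15.96 FPKM in 2N clones. Against CAL51 the difference had a median of 0.32, with 0 members past the threshold (0.155% of all genes) and 4 higher at an unadjusted p under 0.05 (5.43% of all genes). By voom 0 members passed in either.

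Other genes of the pathway had smaller median differences than the subunits in HCT116. NFE2L1, which encodes NRF1, was 53.2, 82.5 and 56.1 FPKM in large clones, 56.5, 79.6 and 42.4 FPKM in small clones, 58.2 and 74.4 FPKM in 2N clones and 59.0 FPKM in the parental cells, and the classes overlapped (-0.07 ± 0.22 in large against 2N clones, limma adjusted p = 0.961). Of 10 tested genes of the NRF1 pathway, 0 passed in large against 2N clones, with a median of 0.14. Of 11 proteasome factors outside the rule, among them the deubiquitinases USP14 and UCHL5, 0 passed with a median of 0.22, and of 15 genes for ubiquitin supply and shuttling 0 passed with a median of 0.20. Of 14 tested interferon and antigen processing genes, 0 passed with a median of -0.07. In the same comparison IRF1, the interferon-induced activator of PSMB9, was at -0.03 ± 0.17, NLRC5, an activator of MHC class I genes, at -0.16 ± 0.14, and TAP1, a peptide transporter, at 0.33 ± 0.26. Their adjusted p lay between 0.576 and 0.990.

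Between lines the interferon list did not give 1 order with the immunoproteasome genes. CAL51 was lower than HCT116 in 10 of 14 genes and higher in 1, and lower than DLD1 in 11 and higher in 1; HCT116 was higher than DLD1 in 7 and lower in 5. HCT116 exceeded DLD1 in HLA-B by a log2 of 2.61 ± 0.15 and in B2M by 1.95 ± 0.19, both parts of MHC class I, although PSMB8 was lower there. IRF1 was lower in CAL51 than in HCT116 by -0.93 ± 0.10 and than in DLD1 by -0.95 ± 0.10, and did not pass between HCT116 and DLD1 (-0.01 ± 0.10, limma adjusted p = 0.946). NLRC5 was higher in HCT116 than in DLD1 by 0.20 ± 0.08. In DLD1 HLA-B was also the gene of this list that passed between classes, at 2.14 ± 0.22 in large against small clones (adjusted p = 5.99e-05) and at -1.99 ± 0.26 in small against 2N clones. Of 5 immune cell markers, the summed level was at most 0.496 FPKM in any library, and CD3E was at most 0.0129 FPKM.

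Several partners of the proteasome differed between lines in the order of the subunits. USP14, which trims ubiquitin at the cap, was higher in CAL51 than in HCT116 by 0.76 ± 0.10 and lower in HCT116 than in DLD1 by -1.11 ± 0.09 on the log2 scale (limma, adjusted p = 1.82e-06 and 5.75e-09). VCP, the ATPase that extracts ubiquitinated proteins, was lower in HCT116 than in DLD1 by -1.22 ± 0.11 (adjusted p = 2.77e-08), and NGLY1, the glycanase that processes NRF1, by -0.75 ± 0.09 (adjusted p = 5.46e-07). PAAF1, an ATPase-binding factor, was higher in CAL51 than in HCT116 by 0.99 ± 0.10. Other genes ran in other orders. NFE2L1 was higher in HCT116 than in DLD1 by 0.91 ± 0.13 (adjusted p = 5.49e-06), although 37 subunit genes were lower there. NFE2L3, a relative of NRF1, was lower in CAL51 than in HCT116 by -3.18 ± 0.17 and than in DLD1 by -3.56 ± 0.17. Between HCT116 and DLD1, 7 of 11 proteasome factors outside the rule were lower and 0 higher, against 5 lower and 5 higher of 15 shuttle and ubiquitin genes and 4 lower and 3 higher of 10 NRF1 pathway genes.

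Upstream sequence of the members was searched because many of them lay higher together in HCT116. RefSeq promoter windows (GRCh38.p14) were matched for 40 of the 46 members, and the 250 bases before the most upstream start were read on both strands. The letters TGACNNNGC, the core of the element that NRF1 and its relatives bind with small MAF proteins, were in 12 of the 40 windows (30.0%), beside 11.1% of 27195 windows of all genes, and no such match overlapped a match of the other letters described here. Of the 13 matches, the 8 that lie in no annotated exon are given on the gene's strand with 10 bases on either side and the match in capitals; where the capitals end in GTCA the match is on the other strand.
ADRM1: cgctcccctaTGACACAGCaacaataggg
PSMB3: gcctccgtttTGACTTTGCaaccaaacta
PSMB9: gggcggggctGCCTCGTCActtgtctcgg
PSMD12: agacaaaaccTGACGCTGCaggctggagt
PSMD3: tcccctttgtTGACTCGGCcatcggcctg
PSMD9, distal: cgctactcctGCCGGGTCAccacaggcgc
PSMD9, proximal: cggcttccggTGACCCAGCtccgccctaa
PSME1: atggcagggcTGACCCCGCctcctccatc
These lie at chr20:62302749-62302777 for ADRM1, chr17:38752627-38752655 for PSMB3, chr6:32854034-32854062 for PSMB9, chr17:67366724-67366752 for PSMD12, chr17:39980760-39980788 for PSMD3, chr12:121888631-121888659 and chr12:121888678-121888706 for PSMD9 and chr14:24136098-24136126 for PSME1.

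The match says that the letters are there, not that a factor binds. In large against 2N HCT116 clones the 12 members with the letters had a median log2 difference of 0.32 (9 above 0), and the 28 without had 0.49 (26 above 0). Both leave out the 6 members that had no window, all above 0, among them PSMB6 (0.62) and PSMB7 (0.66). Letters of the interferon-stimulated response element, a pair of GAAA runs with 2 bases between them, were in 5 of 40 windows (12.5%), those of PSMA4, PSMB4, PSMB10, PSME2 and PSMG4, beside 3.07% of all windows. The letters CCAAT, the core of the NF-Y site, were in 17 of 40 (42.5%), beside 33.0%, and the letters TTCNNNGAA in 3 of 40 (7.50%), beside 6.77%. The upstream window of PSMD12, the member past the threshold in HCT116, is given where it is free of annotated exons, with the TGACNNNGC match in capitals (chr17:67366628-67366827, minus strand).
PSMD12 upstream: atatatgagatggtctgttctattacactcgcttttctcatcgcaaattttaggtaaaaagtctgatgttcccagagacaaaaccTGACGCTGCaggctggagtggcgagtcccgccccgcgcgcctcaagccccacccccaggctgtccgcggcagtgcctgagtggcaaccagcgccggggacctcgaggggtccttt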

How the data were processed

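Poly-A RNA libraries from 26 cultures were read as directional dUTP libraries, per the labels' protocols. The deposited values are FPKM per gene. Per the submitters' processing notes, fastp, HISAT2 version 2.0.5 with GRCh38 and featureCounts version 1.5.0-p3 were used; strand and overlap settings are not given in the sources used here. Reads were recovered from FPKM and gene length, whole to within 0.01 for 100% of values. The 14835 genes that reached 1 FPKM in 3 libraries were fitted as log2(FPKM + 1) in limma (version 3.58.1, R version 4.3.3) with 12 means of line and class, 14 residual degrees of freedom and an intensity trend. Tests were two-sided with Benjamini-Hochberg adjustment over all tested genes at 0.05. Replicates are clones, so p-values measure the spread between clones. Fold changes on this scale understate those of low genes. Promoter windows were those of RefSeq and exons those of GENCODE release 29. The members, gene lists and naming rule (catalytic genes in full, members past the threshold, otherwise the 3 with the largest statistic, and the 5 largest differences between lines) were chosen with earlier results of these data known; other members are named by role or non-overlap. Contrasts between lines in their class differences, non-overlap counts and chromosome medians were chosen after seeing the data. The procedure was tested on simulated data. Figures used Python version 3.11.15 with matplotlib version 3.10.9. Some genes of the related lists are not reported here by name.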

Additional observations from a re-analysis of the deposited data

Results flagged for a closer look

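In the 4 large DLD1 clones, the one group of 4 or more clones, 2 of 46 genes had a clone far from the others; chance flags about 1 in 20 groups. PSMB4, a structural beta subunit, was 111.4 FPKM in clone 2, against 132 to 135 FPKM in the other 3. PSMD5, a base chaperone, was 15.1 FPKM in clone 1, against 22.6 to 23.3 FPKM.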

How the results depend on the processing

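Of 476 values of the 15 counts of called members under alternatives, 452 stayed within 1.5 times the count given and 24 did not. Most of the 452 were counts of 0 that stayed 0. The 1 class count above 0, that of HCT116 large 4N against 2N clones, moved outside in 22 of its 32 alternatives. The single genes tried were PSMD12 and the 5 largest differences between each pair of lines. Of these 0 turned direction, but genes picked for large differences in these data could hardly turn. Family medians did turn: against 2N clones, in DLD1 under TPM scaling, in CAL51 large clones under TPM scaling or without clone 1, in the CAL51 small clone with the replicate block (-0.01) and in large clones of all lines without HCT116. Between large and small clones, the family median took either sign, from -0.17 to 0.15 in CAL51 and from -0.037 to 0.045 in DLD1. For large 4N against 2N clones in HCT116, the count of 1 became 0 with a pseudocount of 0.1, a mean of 1 FPKM in each line, TPM scaling, voom on recovered reads or the line fitted alone, and 8 (4.74% of all genes) with the parental library pooled with the 2N clones. Leaving out clones in turn gave 0 to 13 there and 0 to 3 for large against small HCT116 clones. With clone number as a replicate block the count was 0. Correlations of same-numbered clones ran from -0.056 to 0.085 in DLD1 and from 0.028 to 0.197 in HCT116, and were 0.205 and 0.180 in CAL51. The labels do not say that numbers pair clones, and the main fit did not pair them. Some sharing by number in HCT116 and CAL51 is thus not excluded. Voom on recovered reads called 29 members between CAL51 and HCT116, 37 between CAL51 and DLD1 and 38 between HCT116 and DLD1. TPM scaling gave 38 called members between CAL51 and HCT116, where all genes shifted by 0.24. The cause was not tested. Small groups and, for PSMB8 and PSMB9, few reads limit the comparisons.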
